A study of Mus musculus with 18 samples.

Results

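The genes described here encode the proteasome: all protein-coding genes of the deposited RNA-seq table whose symbol begins with Psm, then a letter from a to g and a digit. The rule took 50 of the 43432 genes in the table. Of these, 48 are subunits, activators, an inhibitor or assembly factors of the proteasome, and the other 2, Psmc3ip and Psme2b, share only the name pattern: Psmc3ip is a factor of meiotic recombination, and Psme2b is a near copy of Psme2 on another chromosome. Another 4 names of the pattern belong to pseudogenes and were not taken. A mean of at least 50 normalised reads over the libraries was required for testing, which 48 of the 50 genes passed. The 2 that did not are Psma8, a testis-restricted ring subunit, and Psmb11, the thymus-restricted catalytic subunit.

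The proteasome is the protease that degrades most ubiquitin-tagged proteins. Its barrel-shaped core has outer rings of alpha subunits and inner rings of beta subunits, a few of which carry the active sites, and a regulatory cap of ATPases and other subunits binds, unfolds and feeds in the substrate. Interferon-gamma and the lymphoid lineage favour an alternative set of catalytic beta subunits, Psmb8, Psmb9 and Psmb10, which replace Psmb5, Psmb6 and Psmb7 in the immunoproteasome and shift the cut peptides towards those that MHC class I molecules present. PA28, made of Psme1 and Psme2, is another cap induced by the same cytokine.

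The series compared primary T cells of C57BL/6 mice, CD8 T cells grown with IL-12 and IL-2 and Th2 cells, the helper cells of type 2 immunity, grown with IL-4, an antibody to interferon-gamma and IL-2. Per the labels all were cultured for 5 days with plate-bound anti-CD3 and anti-CD28, and then spent 4 h in fresh medium with PMA and ionomycin, which imitate antigen receptor signalling (stimulated), or without them (resting). Each of these groups was also sampled with actinomycin D (ActD), which blocks RNA synthesis, so 8 RNA-seq libraries cover 8 conditions with 1 library each. A further 10 libraries, 6 from Th2 and 4 from CD8 cells, were made by GCLiPP, in which ultraviolet light fixes proteins to RNA and the protected RNA pieces are sequenced. The methods describe pooling of cells from several mice. For the libraries without drug they describe RNA from cleared, biotinylated lysates of irradiated cells, selected on oligo-dT beads. For cells given ActD they describe a Trizol lysis and name no such selection. The methods add ActD after the 4 h of stimulation, for a series of times of which the one sequenced is not given. By that account the drug did not cover the stimulation itself. Over all genes tested, however, limma called 3088 as changed by stimulation without ActD and 10 with it. The order of drug and stimulation in the sequenced libraries was not tested. The methods also do not describe 5 days on the antibodies: cells were moved to uncoated dishes before that. The effect of ActD and that of the preparation cannot be told apart.

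The libraries held 24154849 to 31042504 gene reads, and the 50 genes took 0.624 to 0.787% of them. Normalised reads are read counts divided by 1 scaling factor per library, without correction for gene length. Since no condition was repeated, the matched libraries of the other condition or cell type stood in as replicates, and p-values speak only of the scatter among these libraries, some of which may be technical. Calls are limma's, at a Benjamini-Hochberg adjusted p under 0.05 over all 10972 genes tested, and fold changes are on the log2(value + 1) scale with their standard error. Th2 marker genes summed to 637 to 829 normalised reads in CD8 libraries and 45778 to 127067 in Th2 libraries, and CD8 marker genes to 275111 to 509617 and 96832 to 155874. Each sum was higher in the cells so labelled. Most of the CD8 sum was Gzmb, at 255366 in resting CD8 and 92569 in resting Th2 cells without ActD. Cd8a stood at 10516 to 15750 in CD8 libraries and at 1331 to 2401 in Th2 libraries, so Th2 libraries held some CD8 transcripts. In bulk RNA, fewer cells of a type and less RNA per cell cannot be told apart.

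Some promoters of these genes hold short letter strings that known regulators bind, and 6 stretches are shown because they belong to the genes that the results below turn on. RefSeq windows (GRCm38.p6) of 250 bases before to 50 after a transcription start matched 42 of the 50 genes. Capitals mark the string found, read along the gene's own strand, and the place is given after the gene's name.
Psmb5, TGACNNNGC, chr14:54618026-54618050, minus strand: tgaagttgTGACGTCGCggcgttgc
Psmb6, TGACNNNGC, chr11:70525340-70525364, plus strand: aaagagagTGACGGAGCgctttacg
Psmb8, TTCNNNGAA, chr17:34198090-34198114, plus strand: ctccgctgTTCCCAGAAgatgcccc
Psme1, ISRE on the other strand, chr14:55578495-55578520, plus strand: agctgtgcTTTCGCTTTCccttcccg
Psmd11, CCGGAA on the other strand, chr11:80428597-80428618, plus strand: ggcgggtcTTCCGGgtgtgtgt
Psmd12, CCGGAA on the other strand, chr11:107479504-107479525, plus strand: cgggcgacTTCCGGtgcgagtg

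The string TGACNNNGC is the core bound by NFE2L1 and NFE2L2, the factors that raise proteasome genes when proteolysis falls short. On either strand it stood in 6 of the 42 promoters matched (14.3%), against 17.1% of tested genes with a window, and the 2 constitutive catalytic genes Psmb5 and Psmb6 were among the 6. The ISRE, the interferon-stimulated response element bound by interferon regulatory factors, was searched as GAAA, any 2 bases and GAAA, and stood in 5 of 42 (11.9%) against 3.84% of tested genes: Psmb3, Psmd4, Psmd9, Psme1 and Psmg4. TTCNNNGAA, the site of STAT factors, stood in 3 of 42 (7.14%) against 8.64%, Psmb8 included. CCGGAA, the core of ETS factors, was the commonest, in 21 of 42 against 34.0% of tested genes, and CCAAT, bound by NF-Y, stood in 15 of 42 (35.7%) against 43.5%. Each was searched on both strands, and strings that overlap counted for each. These are descriptions of letters in a window, not of binding.

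The immunoproteasome genes Psmb8 and Psmb9 were abundant in every library, resting Th2 cells included. On the deposited scaling both were higher with ActD in each matched comparison but 1. Scaled to ribosomal protein genes, the estimated change of both with ActD turned into a fall. Psmb8 (chromosome 17, 34197721 to 34201454), the chymotrypsin-like subunit that replaces Psmb5, stood in stimulated and resting CD8 cells at 10627 and 11515 normalised reads with ActD, against 7918 and 7431 without it. In stimulated and resting Th2 cells it stood at 7228 and 9388 with ActD, against 7059 and 6626 without. All 4 values with ActD were above their matched value without, the stimulated Th2 pair by little. Psmb9 (chromosome 17, 34181988 to 34187764), which replaces Psmb6, stood in stimulated and resting CD8 cells at 3848 and 4416 with ActD, against 2355 and 2486 without. In stimulated and resting Th2 cells it stood at 2296 and 3092 with ActD, against 2348 and 1971 without. The stimulated Th2 pair is the exception, where the value with ActD lay slightly below the other. Psmb10 (chromosome 8, 105935728 to 105938392), which replaces Psmb7, was lower throughout, and stood in stimulated and resting CD8 cells at 809.6 and 974 with ActD, against 679 and 508 without. In stimulated and resting Th2 cells it stood at 530.0 and 769.7 with ActD, against 886 and 581 without, so that its groups overlap.

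The constitutive counterparts are given in the same way. Psmb5 (chromosome 14, 54614120 to 54617995) stood in stimulated and resting CD8 cells at 674 and 722 normalised reads with ActD, against 699 and 478 without, and in stimulated and resting Th2 cells at 472 and 667 with ActD, against 724 and 478 without. Psmb6 (chromosome 11, 70525367 to 70527858), the caspase-like subunit, stood in stimulated and resting CD8 cells at 3356 and 4091 with ActD, against 3599 and 2429 without, and in stimulated and resting Th2 cells at 2296 and 3134 with ActD, against 3414 and 2247 without. Both were higher in stimulated than in resting cells without the drug and lower with it, in both cell types, as were Psmb8 and Psmb10. Psmb7 (chromosome 2, 38588036 to 38644087), the trypsin-like subunit, stood in stimulated and resting CD8 cells at 5368 and 5030 with ActD, against 6280 and 5510 without, and in stimulated and resting Th2 cells at 4713 and 4121 with ActD, against 5106 and 4149 without. It was higher in stimulated than in resting cells in all 4 comparisons.

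**Figure D1:**
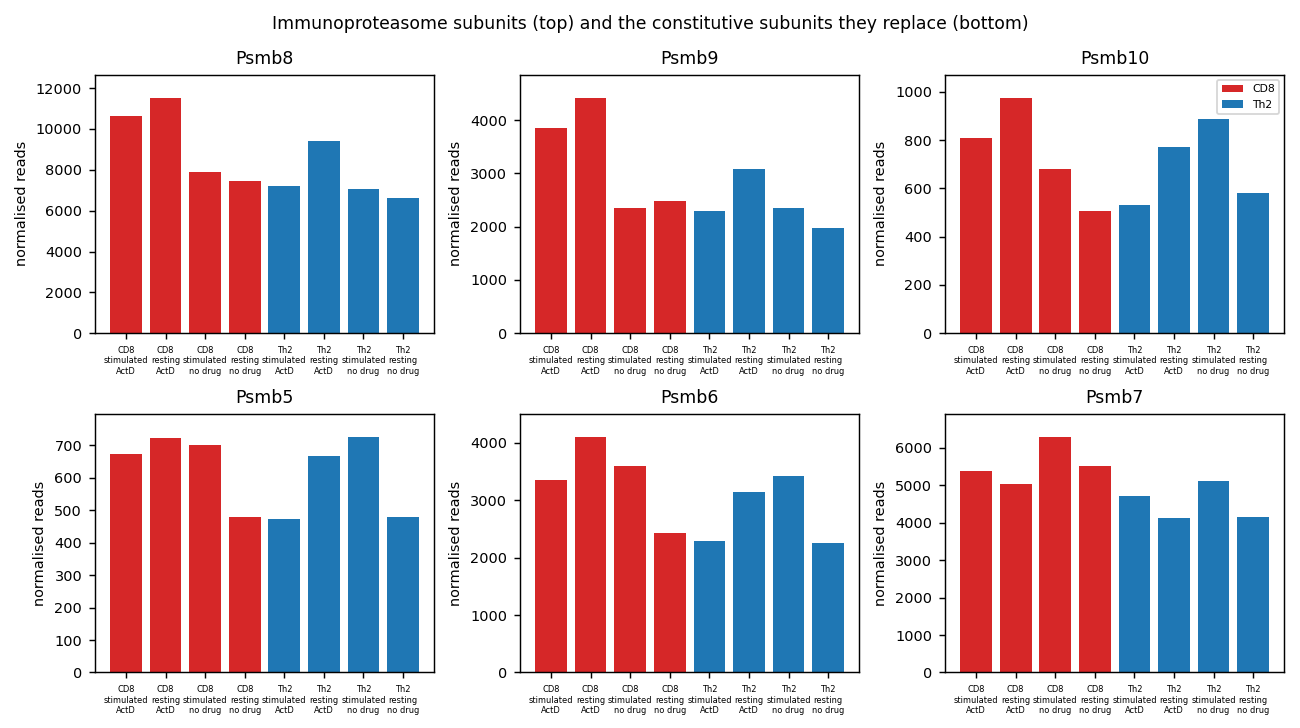
Normalised reads (vertical axis, from 0, scaled per gene) of the immunoproteasome genes Psmb8, Psmb9 and Psmb10 in the top row and of Psmb5, Psmb6 and Psmb7 below the gene that replaces each, 1 bar per library, CD8 in red and Th2 in blue. Psmb8 ran from 6626 to 11515 and Psmb10 from 508 to 974, with the highest Psmb8 and Psmb9 bars in the 2 CD8 libraries given ActD.

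Per kilobase of annotated exon (the union over GENCODE M21 transcripts), Psmb8 averaged 2506 normalised reads over the 8 libraries, Psmb9 779 and Psmb10 421, while Psmb6 averaged 1640, Psmb7 1472 and Psmb5 683. On that scale Psmb8 was the most abundant of the 6 and Psmb10 the least. Reads of Psmb5 are uncertain, since 54.1% of the 50-base words of its transcripts also occur in another gene, most of them in the pseudogene Gm3375. Psmb8 overlaps Gm20496 and Psmb9 overlaps Tap1, a peptide transporter gene, and whether the counting used strand is not given in the sources used here.

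The ratio of each immunoproteasome subunit to the one it replaces compares the pair within a library, free of the scaling between libraries. It is not corrected for gene length, so its level does not give the balance of the transcripts. Only its differences between libraries are read here, and reads of Psmb5 are uncertain as said above. Psmb8 over Psmb5 was, as a log2 ratio of normalised reads in stimulated and resting cells, 3.98 and 3.99 in CD8 cells with ActD and 3.50 and 3.96 in CD8 cells without, and 3.93 and 3.81 in Th2 cells with ActD and 3.28 and 3.79 in Th2 cells without. The 2 stimulated libraries without ActD were the lowest of the 8. Psmb9 over Psmb6 was, in the same order of states, 0.20 and 0.11 in CD8 cells with ActD and -0.61 and 0.03 without, and 0 and -0.02 in Th2 cells with ActD and -0.54 and -0.19 without. Again the 2 stimulated libraries without ActD were lowest. CD8 cells exceeded matched Th2 cells by 0.15 ± 0.07 for Psmb8 over Psmb5, higher in 4 of 4 pairs, and by 0.12 ± 0.13 for Psmb9 over Psmb6, higher in 3 of 4 (mean and SD of the log2 differences, n = 4 pairs). Psmb10 over Psmb7 showed no such order: it was -2.73 and -2.37 in stimulated and resting CD8 cells with ActD and -3.21 and -3.44 without, -3.15 and -2.42 in stimulated and resting Th2 cells with ActD and -2.53 and -2.83 without, and differed between CD8 and Th2 cells by -0.20 ± 0.53, higher in 2 of 4 pairs. These ratios were not tested.

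**Figure D2:**
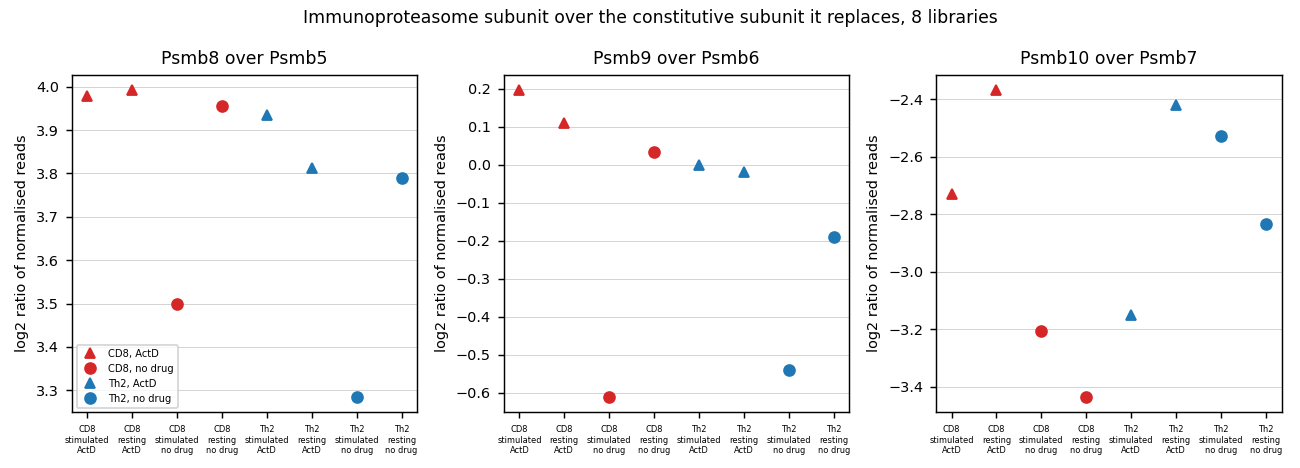
Log2 ratio of normalised reads of an immunoproteasome gene over the constitutive gene it replaces (vertical axis, a separate range per panel) in each of the 8 libraries, CD8 in red and Th2 in blue, triangles with ActD and circles without. In the first 2 panels the stimulated libraries without ActD lie lowest, at 3.50 in CD8 and 3.28 in Th2 cells for Psmb8 over Psmb5.

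The ActD comparison set the 4 libraries given the drug against their 4 matched libraries without it, and asked which of these mRNAs gained or lost share when RNA synthesis was blocked. Among the genes called on the deposited scaling, 4 of 6 cap ATPases and 5 of 11 other cap subunits fell, while 3 of 4 structural beta subunits, 2 of 3 immunoproteasome genes and both genes of PA28 rose, a rise that turned into a fall when scaled to ribosomal protein genes. Cap subunits were also among those that rose, and no difference between roles was tested. Of the 48 genes tested 22 changed, 11 higher and 11 lower, against 61.8% of all genes (30.0% higher and 31.8% lower), so the share that changed was below the background. A fit with the 4 matched pairs as a block called 7, of which Psmb1 was the only one higher and Psmd5, Psmd12, Psmd11, Psmd6, Psmc2 and Psmc1 were lower, so that 10 of the 11 rises rest on the fit without the block. The median of the 48 was 0.10, against 0.00 over all genes. Scaled to the ribosomal protein genes instead, whose share of reads ran from 2.87 to 3.80% in ActD libraries against 1.84 to 2.18% in the others, the median of all genes moved by -0.63, all 11 rises turned into falls, and 39 genes were called, each lower. Quantile normalisation gave 22 higher and 5 lower. Higher and lower below are therefore relative to the deposited scaling.

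Among the 6 ATPases of the cap, which unfold the substrate, 4 fell, none rose, and Psmc3 and Psmc4 were not called. Psmc2 had the largest fall of them, by 0.55 ± 0.09 on the log2 scale (limma adjusted p = 0.00139). Of the 11 other cap subunits 5 fell and 3 rose. Psmd12 (chromosome 11, 107479484 to 107504362), a lid subunit, stood in stimulated and resting CD8 cells at 3820 and 3149 normalised reads with ActD, against 5633 and 4805 without, and in stimulated and resting Th2 cells at 3061 and 1888 with ActD, against 5076 and 3708 without. Each ActD value was below its matched value, and across cell types the groups overlap only in that the stimulated CD8 value with ActD lay above the resting Th2 value without it. It fell by 0.72 ± 0.11 (limma adjusted p = 0.00137). Psmd11, the lid subunit whose level is known to raise proteasome assembly in human embryonic stem cells, fell by 0.57 ± 0.09 (limma adjusted p = 0.00139), and Psmd7, Psmd6 and Psmd14, the last being the deubiquitinase of the lid, fell by 0.55, 0.39 and 0.22. The 3 that rose were Psmd8 by 0.34, Psmd2 by 0.23 and Psmd13 by 0.23.

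Assembly factors split too. Psmd5 (chromosome 2, 34852088 to 34874968), a chaperone of the ATPase ring, stood in stimulated and resting CD8 cells at 1457 and 1387 normalised reads with ActD, against 1962 and 2347 without, and in stimulated and resting Th2 cells at 1301 and 934 with ActD, against 1975 and 2209 without. The groups with and without ActD did not overlap, and it fell by 0.76 ± 0.12 (limma adjusted p = 0.00134). Psmg3 (chromosome 5, 139823592 to 139826885), a core assembly chaperone, stood in stimulated and resting CD8 cells at 206 and 248 with ActD, against 307 and 196 without, and in stimulated and resting Th2 cells at 95.2 and 166 with ActD, against 472 and 258 without. Its groups overlap in CD8 cells, where the resting pair went the other way, and its fall of 0.79 ± 0.29 (limma adjusted p = 0.0454) was carried by larger differences in Th2 than in CD8 cells. The other chaperones, Psmd9, Psmd10, Psmg1, Psmg2 and Psmg4, were not called.

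Core subunits were called in 1 direction only. Of 4 structural beta subunits 3 rose, Psmb1, Psmb3 and Psmb2, and of the 7 alpha subunits Psma7 alone was called, higher by 0.31. Psmb1 (chromosome 17, 15475721 to 15498276) stood in stimulated and resting CD8 cells at 8185 and 8937 normalised reads with ActD, against 7209 and 6269 without, and in stimulated and resting Th2 cells at 8041 and 9245 with ActD, against 6590 and 6049 without. Its ActD values did not overlap the others, and it rose by 0.40 ± 0.08 (limma adjusted p = 0.00444). Of the immunoproteasome genes Psmb9 rose by 0.54 ± 0.13 (limma adjusted p = 0.00888) and Psmb8 by 0.40 ± 0.10 (limma adjusted p = 0.00976), while Psmb10 differed by 0.21 ± 0.18 and was not called. None of Psmb5, Psmb6 and Psmb7 was called, with estimates of 0.10, 0.14 and -0.12. Whether the immunoproteasome genes changed more than these 3 was not tested.

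Both genes of PA28 were also called higher on the deposited scaling, as were Psmb8, Psmb9 and some other core and cap subunits, but not Psmb10. Psme1 (chromosome 14, 55578123 to 55581529) stood in stimulated and resting CD8 cells at 6503 and 6869 normalised reads with ActD, against 5589 and 4692 without, and in stimulated and resting Th2 cells at 6179 and 6755 with ActD, against 5798 and 3695 without. Psme2 (chromosome 14, 55587441 to 55591113), its partner and neighbour, stood in stimulated and resting CD8 cells at 2627 and 2753 with ActD, against 2208 and 2020 without, and in stimulated and resting Th2 cells at 2556 and 2788 with ActD, against 2321 and 1936 without. For both genes each ActD value was above each value without the drug. Psme1 rose by 0.43 ± 0.10 (limma adjusted p = 0.00642) and Psme2 by 0.34 ± 0.08 (limma adjusted p = 0.0104). The nuclear activator Psme3, the activator Psme4 and the inhibitor Psmf1 were not called. Of the words of Psme2, 28.3% also occur in other genes, mostly in Psme2b.

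**Figure D3:**
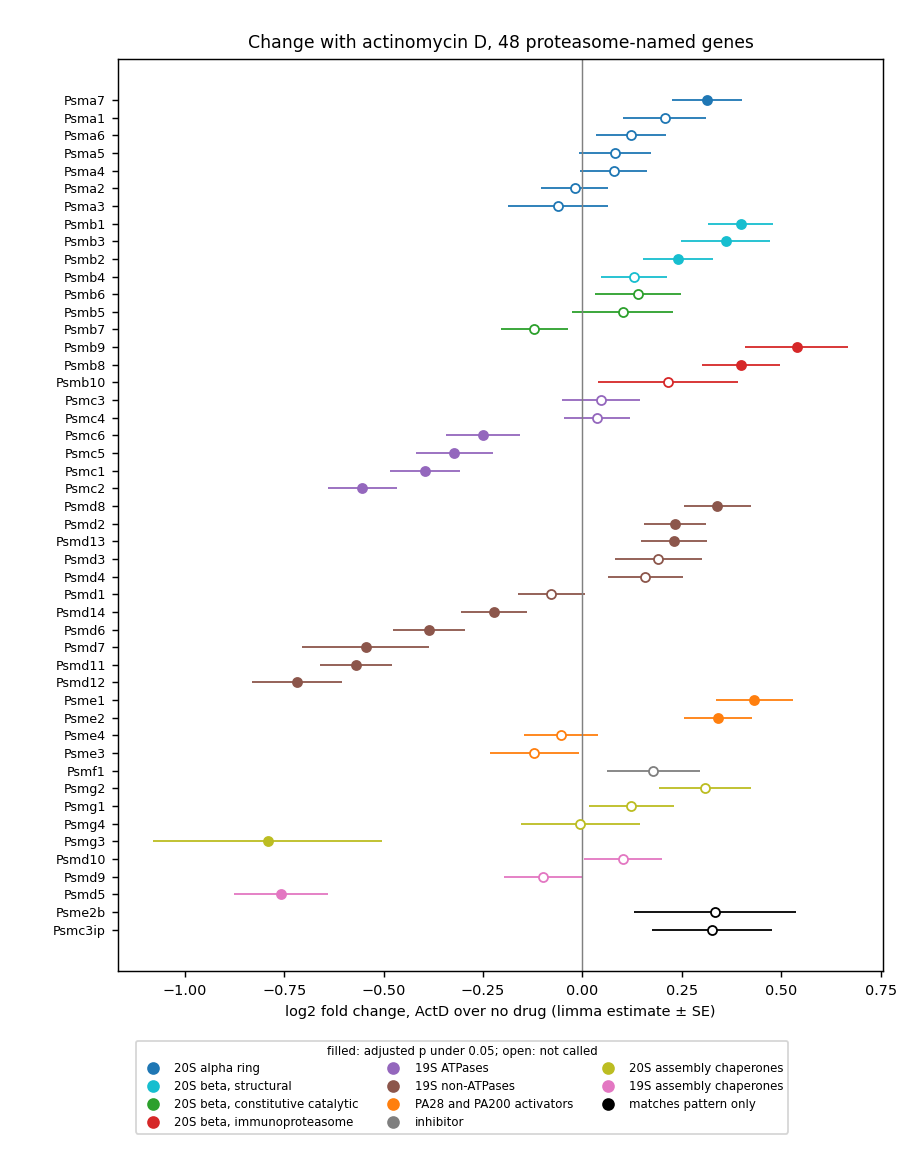
Log2 fold change with ActD over no drug (horizontal axis, limma estimate with its standard error, 4 library pairs) of the 48 tested genes, grouped and coloured by role, filled where the adjusted p was under 0.05. Fallen ATPase, lid and chaperone genes reach -0.79 and the rises, led by Psmb9 at 0.54, lie in core, activator and some cap subunits. Scaled to ribosomal protein genes the 11 rises turn into falls.

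Markers of other cells moved with the drug: the 4 myeloid markers summed to 265 to 462 normalised reads in ActD libraries and 105 to 164 in the others, and Cd68, the 1 of them tested, was higher by 1.64 ± 0.24 (limma adjusted p = 0.000986), while Lyz2 was at 0 in both CD8 libraries without ActD and Csf1r at 0 in 1 library. Of the antigen-presenting cell markers 1 of 5 tested was higher with ActD, and of the B cell markers 0 of 3 by limma, against 30.0% of all genes. The part of these markers in the changes with ActD was not tested.

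Leaving out 1 library at a time kept the sign of all 22 calls, and 8 of them were called in every such fit: Psmd5, Psmd12, Psmd11 and Psmc2 among those that fell, and Psmb9, Psme1, Psmb1 and Psmb8 among those that rose. The count was 8 without the resting Th2 library with ActD, 12 without the resting CD8 library with ActD and 14 without the resting CD8 library without it. edgeR called 13 and DESeq2 11 on the reads of 7 libraries.

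The promoters of genes that fell and rose with ActD were also read for these strings. CCGGAA stood in 8 of the 10 fallen genes with a window, among them Psmd11, Psmd12 and Psmc2, and in 2 of the 9 risen ones, Psmd2 and Psmd13. Over all genes it stood in 37.0% of those that fell and 30.7% of those that rose. CCAAT stood in 3 of 10 and 3 of 9. CCGGAA was singled out after these values were seen, and no difference was tested.

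Related genes were compared on the deposited scaling alone. Beside the counts that follow, 30.0% of all genes tested were called higher with ActD and 31.8% lower. Of 12 tested genes of MHC class I antigen processing 9 rose with ActD, led by Nlrc5, the transactivator of these genes, at 0.78, and H2-D1 and B2m at 0.57 and 0.54, and 1 fell, Tapbpl. Of 13 genes of the interferon-gamma pathway 9 fell and none rose, led by Irf1, Irgm1 and Irf8 at -2.63, -2.03 and -1.77. Of 9 regulators of proteasome genes 6 fell and none rose, with Nfe2l2, the stress-responsive factor, at -1.80, and Nfya and Nfyc, subunits of NF-Y, at -1.19 and -1.12. Of 11 other proteasome parts and partners 4 fell and 2 rose, and the falls of the ubiquitin receptor Adrm1 (-2.41) and of Zfand5, which binds proteasomes, were larger than any in the list of 48. Adrm1 had few reads, at 35.2 to 77.8 normalised reads with ActD and 209 to 461 without, and its sharing of words with other genes was not checked. Rps27a and Ubb, which encode ubiquitin, fell, at -2.94 and -1.61. Rps27a also had few reads, at 55.2 to 105 normalised reads with ActD and 410 to 1041 without. Its sharing of words with other genes was not checked either, so its count and its fall are uncertain.

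The stimulation comparison asked what PMA and ionomycin did to these genes, first without ActD in 2 pairs of libraries. Of the 48 genes 11 changed, 10 higher and 1 lower, against 28.1% of all genes (14.7% higher and 13.4% lower), and the median was 0.25, against 0.03 over all genes. The 10 that rose on the deposited scaling, none of which was called higher when scaled to ribosomal protein genes, were spread over the machine: the activators Psme3 and Psme1, the lid subunits Psmd11, Psmd3 and Psmd8, the ATPase Psmc5, the chaperone Psmd9, and the beta subunits Psmb3, Psmb6 and Psmb2. None of Psmb8, Psmb9 and Psmb10 was called, with estimates of 0.09 ± 0.14, 0.09 ± 0.18 and 0.51 ± 0.25.

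Psme3 (chromosome 11, 101316213 to 101323537), the nuclear activator of the core, had 13302 normalised reads in stimulated and 9729 in resting CD8 cells without ActD, and 13029 normalised reads in stimulated and 6483 in resting Th2 cells. Both stimulated values lay above both resting ones, and the rise was 0.73 ± 0.16 (limma adjusted p = 0.0156). With ActD it had 10219 normalised reads in stimulated and 10202 in resting CD8 cells, and 9360 normalised reads in stimulated and 8006 in resting Th2 cells. Psmd11 (chromosome 11, 80428615 to 80473248) had 4785 normalised reads in stimulated and 3317 in resting CD8 cells without ActD, and 4953 normalised reads in stimulated and 2913 in resting Th2 cells. It rose by 0.65 ± 0.13 (limma adjusted p = 0.0115), and both stimulated values were above both resting ones. With ActD it had 2667 normalised reads in stimulated and 2808 in resting CD8 cells, and 2585 normalised reads in stimulated and 2436 in resting Th2 cells. Those 4 values were the lowest of the 8.

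Psmb3 (chromosome 11, 97703399 to 97713500), a structural beta subunit, had 1415 normalised reads in stimulated and 931 in resting CD8 cells without ActD, and 1361 normalised reads in stimulated and 877 in resting Th2 cells. It rose by 0.62 ± 0.16 (limma adjusted p = 0.0276). With ActD it had 1483 normalised reads in stimulated and 1780 in resting CD8 cells, and 1029 normalised reads in stimulated and 1576 in resting Th2 cells, so that the resting libraries with the drug were the highest of all. The gene that fell, Psme2b (chromosome 11, 48945354 to 48946190), no known part of the proteasome, had 40.3 normalised reads in stimulated and 96.4 in resting CD8 cells without ActD, and 37.4 normalised reads in stimulated and 65.4 in resting Th2 cells, and fell by 1.01 ± 0.29 (limma adjusted p = 0.0378). With ActD it had 66.6 normalised reads in stimulated and 79.7 in resting CD8 cells, and 70.4 normalised reads in stimulated and 65.3 in resting Th2 cells. Of its words 69.3% also occur in other genes, mostly in Psme2, and its count is uncertain.

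These counts leaned on single libraries and on the scaling. They were 0 without the resting Th2 library, 1 without the resting CD8 or the stimulated Th2 library, 2 without either resting library given ActD, and 6 without either stimulated library given ActD, although all 11 signs held in each such fit. Psme3 and Psmd11 were called in 6 of these 8 fits. The 4 libraries without drug on their own called 0 of the 48, as did limma with an additive model, edgeR called 5 and DESeq2 6, and scaling to ribosomal protein genes moved the median of all genes by -0.40 and gave 0 higher and 5 lower genes.

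Related genes are set beside the shares over all genes, 14.7% higher and 13.4% lower with stimulation. Of 11 other proteasome parts and partners 3 rose and none fell: Adrm1, Zfand5 by 0.58 and Pomp, the maturation factor of the core, by 0.38. Of 9 regulators Nfe2l1, which drives proteasome genes when the proteasome is inhibited, rose by 0.57 and none fell. The ubiquitin gene Rps27a, whose low count is uncertain as said above, rose, at 1.18. Of 12 genes of MHC class I processing 4 rose and Nlrc5 fell by 0.68, and of 13 of the interferon-gamma pathway 4 rose, Ifng at 5.78 among them, and Ifngr1 fell.

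Between stimulated and resting cells given ActD, none of the 48 genes was called, against 0.0911% of all genes. limma gave 4 of the 48 at an unadjusted p under 0.05, against 11.9% of all genes, and edgeR and DESeq2 called 0. The median was -0.09, against 0.01 over all genes, and turned to 0.19 when scaled to the ribosomal protein genes, which moved the median of all genes by 0.28. The test of the difference between the 2 stimulation changes called 3 of the 48, all lower with ActD, against 14.5% of all genes (7.06% higher and 7.44% lower). They were Psmb3 at -1.06 ± 0.22 (limma adjusted p = 0.0268), Psmb6 at -0.95 ± 0.22 (limma adjusted p = 0.0326) and Psmd3, a lid subunit, at -0.82 ± 0.22 (limma adjusted p = 0.0481).

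Psmb6 was higher in stimulated than resting cells by 0.57 in CD8 and 0.60 in Th2 cells without ActD, as log2 differences between single libraries, and by -0.29 and -0.45 with it. Psmd3 (chromosome 11, 98682554 to 98695979) had 3858 normalised reads in stimulated and 2728 in resting CD8 cells without ActD, and 3775 normalised reads in stimulated and 2425 in resting Th2 cells. With ActD it had 3998 normalised reads in stimulated and 4283 in resting CD8 cells, and 2689 normalised reads in stimulated and 3548 in resting Th2 cells. In each of the 3 genes every library pair was positive without the drug and negative with it. Each was called in only 1 to 3 of the 8 fits that left out 1 library, and the count was 14 without the stimulated CD8 library not given ActD, 1 without the stimulated CD8 library given it, and 0 without the stimulated Th2 library given ActD or any of the 4 resting libraries. edgeR called 0 and DESeq2 6, and with ribosomal scaling 17 genes were called, each higher.

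**Figure D4:**
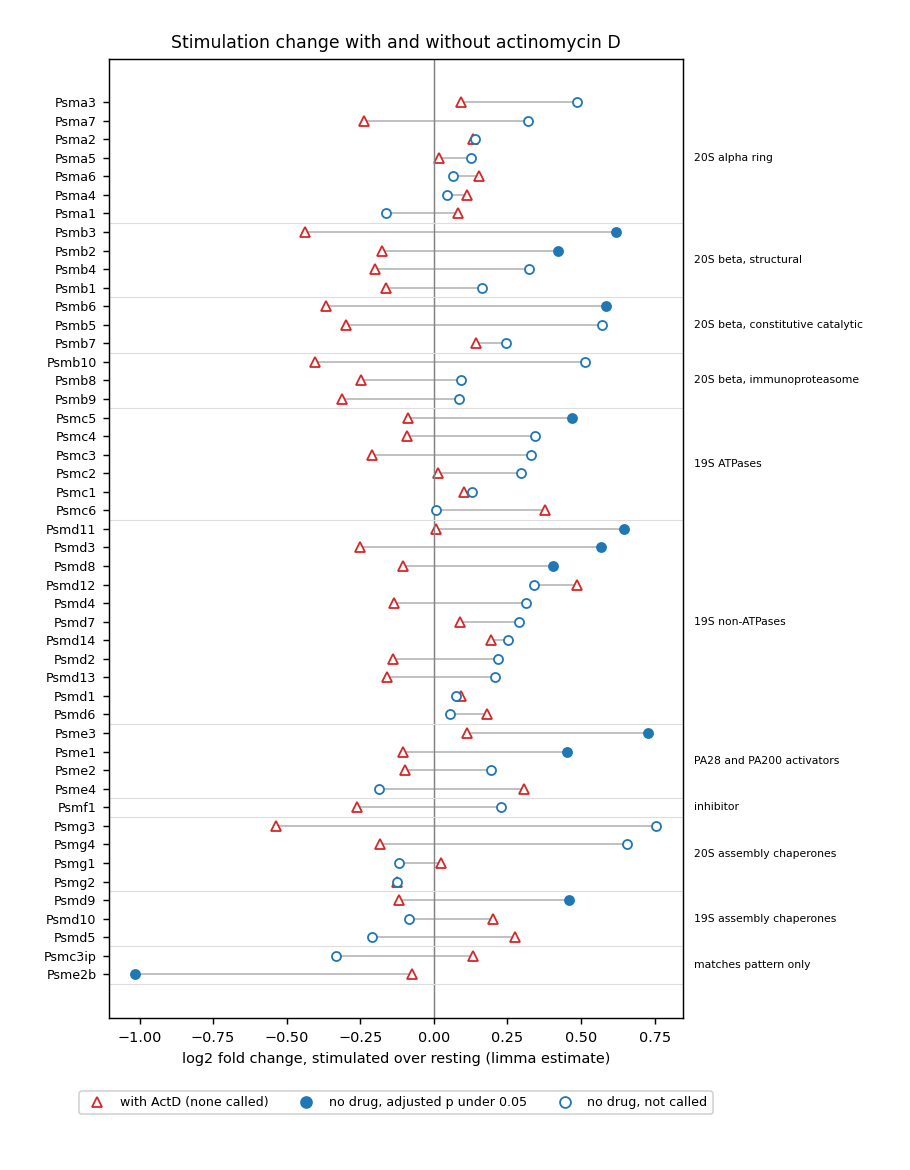
Log2 fold change of stimulated over resting cells (horizontal axis, limma estimate over 2 library pairs) for the 48 tested genes, as red triangles with ActD and blue circles without, filled where the adjusted p was under 0.05, with roles named at the right. Without the drug 40 of 48 circles lie above 0, against 22 of 48 triangles with it. The median without drug is 0.25, and -0.15 when scaled to ribosomal protein genes.

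The comparison of the cell types set the 4 CD8 libraries against the 4 Th2 libraries of the same state and drug. Of the 48 genes 15 were called higher in CD8 cells and none lower, against 18.1% and 18.7% of all genes, and 45 of 48 estimates were above 0, some of them by less than their standard error. The median was 0.23, against 0.02 over all genes, and the largest change in a proteasome gene was 1.46-fold. The calls took in the immunoproteasome gene Psmb9 at 0.40 ± 0.13 (limma adjusted p = 0.0466) and the constitutive subunit Psmb7 at 0.30 ± 0.08 (limma adjusted p = 0.0302). Psmb8 differed by 0.30 ± 0.10 and missed the threshold (limma adjusted p = 0.0502), and Psmb10 differed by 0.09 ± 0.18 (limma adjusted p = 0.704).

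Psmg4 (chromosome 13, 34162964 to 34178172), a core assembly chaperone, stood in stimulated and resting cells given ActD at 221 and 231 normalised reads for the CD8 type, against 137 and 168 for Th2, and without ActD at 255 and 194 for the CD8 type, against 214 and 113 for Th2. It was higher in CD8 cells in all 4 pairs, by 0.54 ± 0.15 (limma adjusted p = 0.0272), though the groups overlap. Psmd14 (chromosome 2, 61711694 to 61800376), the lid deubiquitinase, stood in stimulated and resting cells given ActD at 5821 and 5351 for the CD8 type, against 4397 and 3653 for Th2, and without ActD at 6869 and 5997 for the CD8 type, against 5286 and 4270 for Th2. Each CD8 value was above each Th2 value, and the difference was 0.46 ± 0.08 (limma adjusted p = 0.00498).

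Psmc3ip (chromosome 11, 101091823 to 101095436), the recombination factor, stood in stimulated and resting cells given ActD at 446 and 389 for the CD8 type, against 258 and 246 for Th2, and without ActD at 301 and 304 for the CD8 type, against 176 and 276 for Th2. It was higher in CD8 cells in every pair, by 0.59 ± 0.15 (limma adjusted p = 0.0206), but it is no part of the proteasome. The other calls lay between 0.27 and 0.40: the ATPases Psmc1 and Psmc6, the cap subunits Psmd1, Psmd6, Psmd12 and Psmd13, the alpha subunits Psma1 and Psma5, the beta subunit Psmb2 and the chaperone Psmg2. No activator was called, and the inhibitor Psmf1 was not called, at -0.04. Of the 50-base words of Psma5, 50% also occur in other genes.

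**Figure D5:**
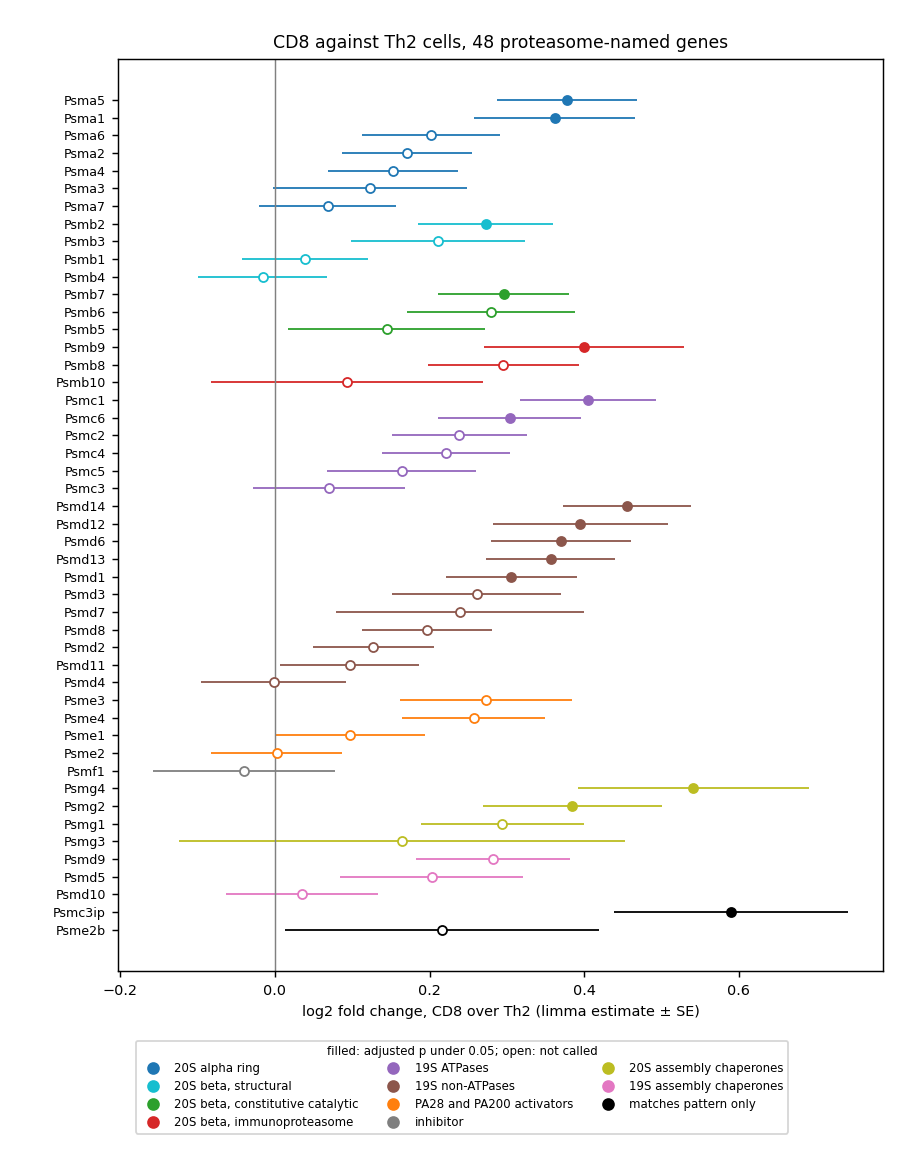
Log2 fold change of CD8 over Th2 cells (horizontal axis, limma estimate with its standard error, 4 library pairs) of the 48 tested genes, grouped and coloured by role, filled where the adjusted p was under 0.05. Points lie to the right of 0 for 45 of 48 genes, the lowest at -0.04 and the highest, Psmc3ip, at 0.59.

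Psmd14 alone was called in each of the 8 fits that left out 1 library, while the sign of all 15 held. The count was 1 without either resting library given ActD, 4 without either resting library without it, and 6 without either stimulated library given ActD. edgeR called 2 and DESeq2 6, and the 4 libraries without drug alone called 0 of the 48. Markers of other cells moved with the cell type: the 5 B cell markers summed to 136 to 231 normalised reads in CD8 libraries and 731 to 858 in Th2 libraries, with Pax5 at 0 in 3 of the CD8 libraries, and 3 of 3 tested were lower in CD8 cells. The 6 markers of antigen-presenting cells summed to 791 to 1559 in CD8 libraries and 5056 to 7294 in Th2 libraries, with 5 of 5 tested lower in CD8 cells and none at 0. Their part in these differences was not tested.

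Whether stimulation acted differently on the list in CD8 and Th2 cells was asked by another interaction. limma called 0 of the 48 and 0% of all genes, with 0 of the 48 and 173 of all genes at an unadjusted p under 0.05, and edgeR and DESeq2 called 0 of the 48. Estimates ran from -0.41 to 0.38. For Psmb8 the 95% interval of the difference was -0.38 to 0.64, and for Psmb10 -0.92 to 1.00, so these libraries leave room for sizeable differences in either direction.

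Related genes between the cell types included Ifng, higher in CD8 cells by 6.18, and Ifngr2 and Jak2 at -5.00 and -2.68. Over all genes 18.1% were called higher in CD8 cells and 18.7% lower. In the interferon-gamma pathway 3 of 13 were higher and 4 lower. Among 12 genes of MHC class I processing 2 were higher, Pdia3 and Nlrc5, and Calr was lower. Of 11 other proteasome parts and partners 4 were higher, led by Txnl1 at 0.50, and of 9 regulators 3 were lower, led by Nfyb at -0.67.

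The genes below the filter stayed near the floor. Psma8 stood in stimulated and resting CD8 cells at 26.8 and 30.5 normalised reads with ActD, against 21.3 and 13.5 without, and in stimulated and resting Th2 cells at 20.9 and 21.2 with ActD, against 4.53 and 6.23 without. Psmb11 was listed at 0 in all 8 libraries.

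GCLiPP gave protein-bound stretches on these transcripts, as peaks of 70 bases called on pooled libraries, so conditions cannot be compared. The list had 131 of the 27729 peaks, on 42 of the 50 genes, with a median of 2 per gene, as over all 6688 genes with a peak. Psme3 had the most, 22, followed by Psmd11 with 20. The 8 genes with none were Psma8, Psmb11, Psmc2, Psmc3ip, Psmd10, Psme2, Psme2b and Psmg1. The authors' score, whose meaning is not given in the sources used here, had a median of 31 over these peaks and 24 over all peaks, and was highest on Psmd4, a ubiquitin receptor of the cap (330), Psmb4 (291) and Psmb1 (228). The best peak scored 136 on Psmb8, 51 on Psmb9 and 24 on Psmb10, and 34 on Psmb5, 48 on Psmb6 and 153 on Psmb7.

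By GENCODE M21, 100 of the 131 peaks lay in a 3′ UTR and 21 spanned the end of a coding region. Per the methods, the authors' peak caller searched 3′ UTRs only, so this location was set by the search and is no result about these genes. The polyadenylation signal AATAAA stood in 8 of the 39 best peaks per gene whose bases could be read from an annotated transcript (20.5%), against 9.60% of the best peaks of all genes. The end of 4 such peaks is shown with the signal in capitals, to place the bound stretch in the mRNA for the catalytic genes Psmb5 and Psmb8, for Psme1 and for the high-scoring Psmb4.
Psmb8, chr17:34201416-34201442, plus strand, mm10: ccttctaagtacAATAAAagaaaaacg
Psmb5, chr14:54614124-54614153, minus strand, mm10: ctccatggctatAATAAAtaatagtacctc
Psme1, chr14:55581494-55581523, plus strand, mm10: cctcccaaacacAATAAAtacatagttgcc
Psmb4, chr3:94884341-94884359, minus strand, mm10: agacttttgtaaAATAAAt

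The peak of Psmb8 ended 12 bases before the annotated end of the gene, that of Psmb5 4 bases and that of Psme1 5 bases before it, while the peak of Psmb4 lay 248 bases before it. Psmb8 carried 2 further peaks in the same 3′ UTR, with scores of 62 and 37, the first of which overlaps the best peak.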

How the data were processed

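RNA was sequenced in 8 libraries, 1 per condition. Per the labels and methods the authors aligned reads with STAR to mm10; the labels name a stranded kit, while no source read here names the counter, the annotation or the strand setting. The deposited RNA-seq signal values are gene read counts that the authors divided by 1 size factor per library: 100% of them return to whole reads within 0.01. The methods name FPKM, but the values hold no length term. The deposited GCLiPP peak score comes from the authors' peak caller on pooled libraries aligned with Bowtie2. A second deposited table repeats the values beside the authors' fold changes, which were not used.

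Genes with a mean of at least 50 were tested with limma 3.58.1 (trend, R 4.3.3) on log2(value + 1), with 4 condition terms plus cell type, Benjamini-Hochberg adjusted over all genes. The stimulation by cell type interaction came from a model with that term added. Alternatives were edgeR 4.0.16 and DESeq2 1.42.0 on recovered reads of 7 libraries, other scalings, filters and models, and each library left out. The library not given to edgeR and DESeq2 was that of stimulated CD8 cells with ActD. Its size factor lay near 1 (1.007), although its values also returned to whole reads. The fit was tested on simulated data. The genes, lists and tests were chosen with earlier results of these data known. Values in every library are given for the catalytic genes, Psme1, Psme2, the 3 largest called changes in each direction per comparison, genes under the filter and those that match by name only. Companion lists name their 3 largest called changes, and single genes that went against a list were named after their values were seen. Some genes of the list of ubiquitin genes and shuttle factors are not reported here, and that list is given without counts.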

Additional observations from a re-analysis of the deposited data

Results flagged for a closer look

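In 3 genes the effect of stimulation differed between cells with and without ActD by limma's test of the difference itself, over 2 library pairs each. The log2 change in stimulated over resting cells was smaller with ActD than without by -1.057 for Psmb3, -0.9522 for Psmb6 and -0.8185 for Psmd3. All 4 library pairs of each gene followed this direction, positive without ActD and negative with it. Scaling to ribosomal protein genes moved the median of this difference over all genes by 0.68 and left none of the 48 genes called lower.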

How the results depend on the processing

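No paired analysis was possible because of replicate numbers, which the RNA-seq labels do not carry. Libraries could still be matched by cell type and state, and a fit with these pairs as a block called 7 genes for ActD (1 higher, 6 lower). Calls for stimulation without ActD (11 genes) numbered 4 with no filter, 7 with TMM factors, 5 with quantile normalisation, 5 with ribosomal scaling, 5 by edgeR, 6 by DESeq2, and 0 with the libraries without drug only or an additive model. They ranged from 0 to 14 as 1 library was left out. Calls for ActD (22) numbered 39 with ribosomal scaling, 13 by edgeR, 11 by DESeq2 and 12 with an additive model, and ranged from 8 to 19. Calls for the difference between the stimulation changes (3) numbered 1 with no filter, 17 with ribosomal scaling, 0 by edgeR and 6 by DESeq2, and ranged from 0 to 14. Calls between CD8 and Th2 cells (15) numbered 2 by edgeR, 6 by DESeq2, 0 with the libraries without drug only and 4 with an additive model, and ranged from 1 to 19. Fewer samples entered the fits on part of the libraries and more genes were tested with no filter; the cause of the other shifts was not tested. With ribosomal scaling the 11 rises with ActD turned into log2 changes of -0.3968 for Psmd2, -0.2315 for Psmb1, -0.1972 for Psme1, -0.2315 for Psmb8, -0.3996 for Psmd13, -0.3164 for Psma7, -0.3889 for Psmb2, -0.291 for Psmd8, -0.2689 for Psmb3, -0.2891 for Psme2 and -0.09126 for Psmb9. Of the other single-gene values 519 were counted as keeping their direction and side of the threshold and 406 kept their direction but lost the call. The 519 include the untested subunit ratios of each library, recomputed with 5 added to each value in place of 1. Those ratios have no threshold and were counted as kept without a check. With 1 library per condition, biological variation within a condition was not measured.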
